A study of Mus musculus with 10 samples.

Results

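The genes described here are 7 receptors through which leukocytes and microglia read chemokines and related attractants: Cx3cr1, Ccr1, Ccr2, Cxcr2, Cxcr4, Ccrl2 and Cmklr1. They were chosen by name from the 18281 gene symbols of the count tables, and a symbol that a library's table did not list was counted as 0 there. All 7 had enough counts to be tested. The cells were microglia of C57BL/6 mice, sorted by FACS as live, CD11b high and CD45 intermediate cells and profiled as single cells, and the labels name no transgene or deletion in any group. Per the study's methods, human PDGF was given to the slice cultures whenever their medium was changed. The 5 groups had 2 libraries each. Adult microglia were isolated fresh from adult brain. Brain slice microglia came from organotypic coronal slices of neonatal brain after 1 day, 1 week or 3 weeks of culture, with slices pooled as needed. In vitro microglia were collected from the medium of mixed glial cultures of neonatal cortex after 3 weeks. The study calls the 2 libraries of a group independent samples, but the labels do not say whether they came from separate animals or cultures, so the p-values below measure the spread between these libraries, which may be technical. Age at the start, culture, its medium and time since isolation differ together between adult and cultured cells and cannot be told apart.

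Chemokine receptors are G protein coupled receptors with 7 membrane spans that couple mainly to Gi proteins and direct cell movement along a ligand gradient. In the healthy brain Cx3cr1 is the receptor that defines microglia. Its ligand fractalkine (Cx3cl1) is carried by neurons. Ccr2 brings blood monocytes to sites where Ccl2 is made, and Cxcr2 brings neutrophils to Cxcl1 and Cxcl2. Ccr1 binds Ccl3, Ccl6 and Ccl9 and is shared by monocytes, neutrophils and macrophages. Cxcr4 holds cells in niches that make Cxcl12. Cmklr1 is the signalling receptor for chemerin (Rarres2), and Ccrl2 is an atypical receptor that binds chemerin without known G protein signalling and presents it to Cmklr1.

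On the mouse assembly GRCm38, 4 of the 7 genes lie on chromosome 9. Cx3cr1 is annotated at chr9:119901616-120069879 on the minus strand, Ccr1 at chr9:123962124-123968692 on the minus strand, Ccr2 at chr9:124101950-124113557 on the plus strand and Ccrl2 at chr9:111054486-111057519 on the minus strand. Ccr1 and Ccr2 are separated by 133 kb with 2 protein coding genes between them. Cxcr2 is at chr1:74153989-74161246 on the plus strand, Cxcr4 at chr1:128588199-128592293 on the minus strand and Cmklr1 at chr5:113612354-113650426 on the minus strand. An exon of Cx3cr1 overlaps an exon of Gm33858 on the opposite strand, so reads of the pair can be told apart only by strand, and whether the counting used strand is not given in the sources used here. The other 6 genes share no exon with another annotated gene.

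The DNA just before the start of Ccr1, Cxcr4 and Cmklr1 is shown because Ccr1 and Cxcr4 were called higher than adult in every culture and Cmklr1 was lower in all 4, with a call in 3. All 7 members were matched in RefSeq (GRCm38.p6). For these 3 the 250 bases before the RefSeq start held no base of an annotated exon. The Cmklr1 window lies inside the annotated gene, before its RefSeq start. Capitals mark matches, on either strand, to the core letters of a PU.1 site (GAGGAA), an AP-1 site (TGANTCA), a hypoxia response element (ACGTG) or an NF-kB site (GGG and TTTCC with 2 free bases between them).
Ccr1, chr9:123968693-123968942, minus strand: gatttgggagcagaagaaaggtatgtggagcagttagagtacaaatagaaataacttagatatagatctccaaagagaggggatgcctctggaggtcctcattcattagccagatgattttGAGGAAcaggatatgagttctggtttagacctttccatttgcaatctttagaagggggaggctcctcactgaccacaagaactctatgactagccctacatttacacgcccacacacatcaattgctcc
Cxcr4, chr1:128592300-128592549, minus strand: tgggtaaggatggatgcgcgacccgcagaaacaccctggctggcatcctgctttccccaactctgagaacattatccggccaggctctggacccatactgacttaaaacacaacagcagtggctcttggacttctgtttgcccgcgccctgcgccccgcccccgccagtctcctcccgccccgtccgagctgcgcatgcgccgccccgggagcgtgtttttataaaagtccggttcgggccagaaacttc
Cmklr1, chr5:113643604-113643853, minus strand: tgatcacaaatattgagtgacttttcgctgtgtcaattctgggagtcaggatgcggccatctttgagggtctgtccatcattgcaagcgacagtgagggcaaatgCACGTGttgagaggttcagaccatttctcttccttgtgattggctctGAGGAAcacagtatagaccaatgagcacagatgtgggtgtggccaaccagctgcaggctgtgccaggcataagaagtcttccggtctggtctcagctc
Ccr1 held the PU.1 letters 129 bases before its start and Cmklr1 98 bases before its start. PU.1 is the ETS factor that myeloid cells depend on, and its letters occurred in 23.3% of the 32851 windows of this length. Cmklr1 also held CACGTG, which counts as a match to the hypoxia letters on both strands, and those occurred in 16.6% of windows. The AP-1 letters (6.75% of windows) and the NF-kB letters (1.41%) were in none of the 3, and Cxcr4 held none of the 4 sets. These are matches of letters in 1 window per gene, not measured sites.

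Of 19637 cell barcodes, 19059 passed the filters, with 61 to 3799 cells and 385373 to 39689540 UMIs (unique molecular identifiers, each standing for 1 captured RNA molecule) per library. The slice 1 week libraries were the smallest, with 148 and 61 cells. The study counts fewer cells in its slice 1 week samples, both well under the larger of these libraries. It also describes an outlier step by t-SNE, which was not repeated here. The median depth of a cell was lowest in adult replicate 2, at 1858 UMIs, and highest in in vitro replicate 2, at 13966, so the share of cells with at least 1 UMI of a gene was also taken after each cell was thinned to 1000 UMIs. The 8 microglia markers (P2ry12, Tmem119 and others) summed to 21012 to 21624 CPM (UMI counts scaled to library size) in adult and to 1808 to 8827 CPM in the other 8 libraries, and none was at 0 in any group. Cells in which S100a8 and S100a9 made up at least 1% of UMIs, called neutrophil-marker cells, numbered 68 and 114 in slice 1 day (13.1% and 11.2%), 24 and 1 in slice 1 week (16.2% and 1.64%) and 0 in the other 6 libraries. The 10 neutrophil markers summed to 7536 to 22533 CPM in slice 1 day and to 1031 to 43684 CPM in slice 1 week, against 23.7 to 191 CPM elsewhere. In adult 4 of these 10, Retnlg, Mmp8, Ltf and Stfa2l1, were at 0, in slice 3 weeks 4 and in vitro 3. The 7 border macrophage markers (Mrc1, Pf4 and others) summed to 7.21 to 12.6 CPM in adult, 133 to 520 CPM in slices and 4814 to 4916 CPM in vitro, where 87.6% and 88.0% of cells had 3 or more of them, so that rule names no cell type there. Lymphocyte, dendritic and neural cell markers summed to at most 67.6, 3.49 and 145 CPM in any library. No 2 libraries shared more than 21 cell barcodes.

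In the sums over all cells of a library, 6 of the 7 receptors differed from adult in slice 1 day, 6 in slice 1 week, 5 in slice 3 weeks and 6 in vitro. Only Ccrl2 at 1 day and 3 weeks, Cxcr2 at 3 weeks and in vitro, and Cmklr1 at 1 week did not pass. A call is an adjusted p (edgeR quasi-likelihood, Benjamini-Hochberg over 12155 genes) under 0.05 with a fold change over 1.5. In vitro, 2 receptors rose against 22.4% of all genes and 4 fell against 28.5%. At slice 1 day 4 rose (24.9% of all genes) and 2 fell (25.4%), and at slice 1 week 4 rose (15% of all genes) and 2 fell (13.6%). At slice 3 weeks 2 rose (18%) and 3 fell (17.5%). The median log2 fold change over the 7 was -1.46 in vitro, 2.80 at 1 day, 2.09 at 1 week and -0.71 at 3 weeks, with the same values when Cxcr4 is set to its lower bound, and that over all genes was -0.11, -0.06, -0.08 and -0.03. These 4 comparisons share the adult libraries. The receptors called in the same direction against adult in all 4 cultures were Cx3cr1, which was lower, and Ccr1 and Cxcr4, which were higher. Cmklr1 lay below adult in all 4 and was called in 3.

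**Figure D1:**
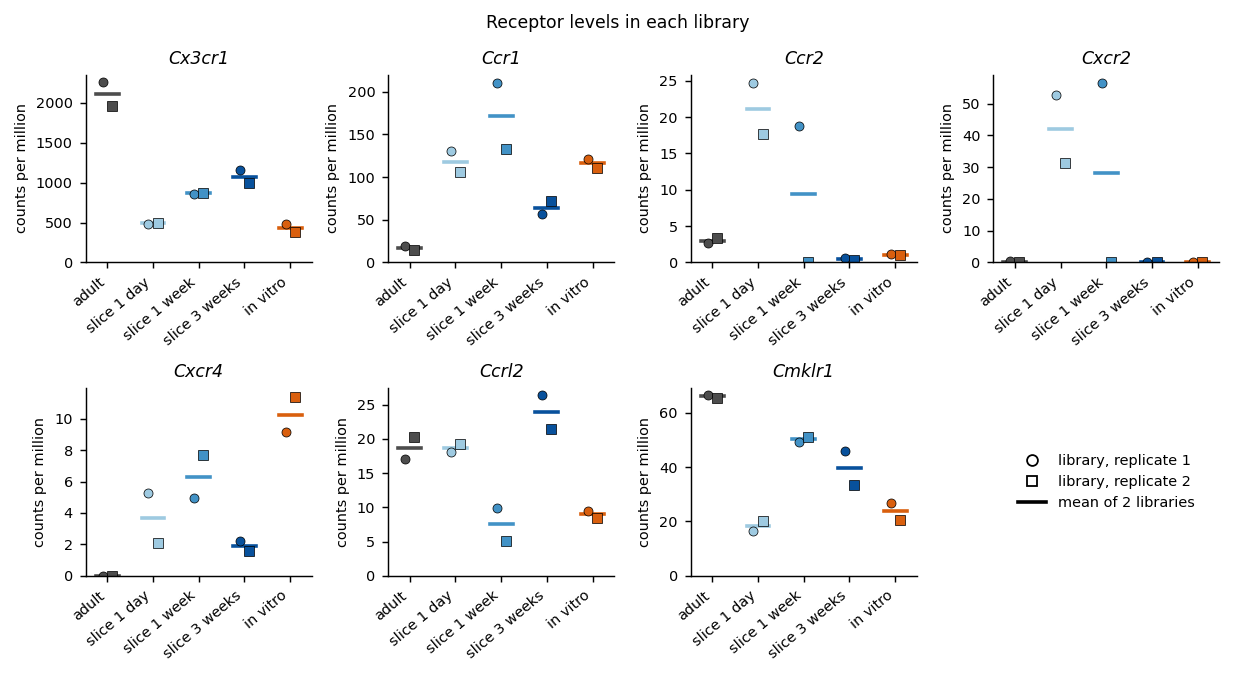
TMM normalised CPM (linear axis from 0, own scale per gene) of each of the 7 receptors in the 10 libraries, by group, with 1 point per library and a line at the mean of 2. Cx3cr1 is highest in both adult libraries and Ccr1 lowest there, Cxcr4 is at 0 in both adult libraries, and Ccr2 and Cxcr2 are at 0 in 1 of the slice 1 week libraries.

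Cx3cr1, the fractalkine receptor, was highest in adult microglia and lowest in vitro and in slices at 1 day. Its TMM normalised level was 2262 and 1958 CPM in the adult libraries (mean 2110 ± 215, SD, n = 2), 480 and 498 CPM at slice 1 day (489 ± 13.2), 863 and 870 CPM at slice 1 week (866 ± 5.13), 1156 and 994 CPM at slice 3 weeks (1075 ± 115), and 480 and 380 CPM in vitro (430 ± 70.9). The adult libraries lay above all 8 others, and the ranges of slice 1 day and in vitro met. The log2 fold change from adult was -2.11 ± 0.167 (SE) at 1 day (adjusted p = 5.45e-06), -1.28 ± 0.165 at 1 week (0.000309), -0.97 ± 0.162 at 3 weeks (0.000976) and -2.29 ± 0.168 in vitro (1.8e-06). Every one of these was called in every alternative fit and with every library left out. In the study, adult replicate 1 and slice 3 weeks replicate 1 carry one study ID label and the other 8 libraries another, and the 3-week difference was -0.97 within the first and -0.98 within the second.

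Among the cultures, Cx3cr1 rose with time in slices. It was 1.14 ± 0.163 higher on the log2 scale at 3 weeks than at 1 day (adjusted p = 0.00091) and 0.82 higher at 1 week than at 1 day (0.0123), while 3 weeks and 1 week differed by 0.31 (0.309). The rise to 1 week lost its call when any 1 of its 4 libraries, slice 1 day replicate 1 or 2 or slice 1 week replicate 1 or 2, was left out, with differences of 0.74 to 0.85 and adjusted p from 0.0677 to 0.0887, and was 0.53 (0.282) after each cell was thinned to 1000 UMIs. In vitro microglia had 1.32 less than slice 3 weeks (log2 fold change -1.32, adjusted p = 0.000173). In the order of levels, adult was followed by slice 3 weeks, slice 1 week, slice 1 day and in vitro, and the last pair overlapped.

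The share of cells with a Cx3cr1 UMI gave the same picture only at equal depth. Without thinning it was 99.3% and 96.6% in adult and 90.5% and 87.9% in vitro, where cells held several times more UMIs. After thinning to 1000 UMIs it was 90.6% and 87.4% in adult, 60.5% and 52.9% at slice 3 weeks, 41.9% and 52.5% at slice 1 week, 32.0% and 32.9% at slice 1 day, and 34.3% and 28.4% in vitro. Neutrophil-marker cells, a class set by S100a8 and S100a9 alone, had a Cx3cr1 UMI in 8.82% and 44.7% of cells at slice 1 day. In slice 1 week replicate 1 the share was 58.3%, and the median depths were 2224, 4925 and 4491 UMIs. The cells of no other marker class stood at 75.9%, 86.8% and 75.0% there, at 7149, 9010 and 6662 UMIs. Whether a Cx3cr1 UMI in a neutrophil-marker cell came from that cell was not tested, and no doublet caller was run. Leaving the neutrophil-marker cells out moved the 1-day difference from adult from -2.11 to -2.04.

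Cmklr1, the signalling chemerin receptor, was likewise highest in adult and lower in all 4 cultures, with a call in 3 of them. Its level was 66.7 and 65.6 CPM in adult (66.1 ± 0.825), 16.5 and 20.1 CPM at slice 1 day (18.3 ± 2.53), 49.4 and 51.2 CPM at slice 1 week (50.3 ± 1.25), 45.9 and 33.3 CPM at slice 3 weeks (39.6 ± 8.96), and 27.0 and 20.5 CPM in vitro (23.7 ± 4.59). Both adult libraries were above all others, and slice 1 day and in vitro were the lowest groups, with the higher slice 1 day library just under the lower in vitro one. The log2 fold change from adult was -1.83 ± 0.201 at 1 day (adjusted p = 4.09e-05), -0.75 at 3 weeks (0.00915) and -1.48 ± 0.187 in vitro (7.78e-05). At 1 week it was -0.40 (0.224), which was not called, and it was -1.66 after thinning to 1000 UMIs, with no call in any alternative (lowest adjusted p = 0.0747). The fall at 3 weeks was lost without adult replicate 1 (adjusted p = 0.0651) or slice 3 weeks replicate 2 (0.0723), and was -0.54 and -0.98 within the 2 study ID labels.

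Cmklr1 rose in slices after the first day, by 1.43 on the log2 scale from 1 day to 1 week (adjusted p = 0.00753) and by 1.08 from 1 day to 3 weeks (0.00316). The first of these rests on 50 and 20 UMIs at 1 week and was lost without slice 1 week replicate 1 (1.45, adjusted p = 0.105) and after thinning (0.47, 0.854), while the second was 1.11 after thinning and not called (0.0613). From 1 week to 3 weeks the difference was -0.35 and not called. In vitro microglia were 0.73 lower than slice 3 weeks on the log2 scale (-0.73, adjusted p = 0.0111), a call that was lost without slice 3 weeks replicate 1 (-0.49, a fold change under 1.5) or in vitro replicate 2 (adjusted p = 0.185), in the 2 groups alone (0.0700) and after thinning (0.288). After thinning, 8.28% and 7.07% of adult cells had a Cmklr1 UMI, against 4.34% and 2.94% at slice 3 weeks, 2.70% and 1.69% at slice 1 week (4 and 1 cells), 3.10% and 1.53% in vitro, and 1.54% and 1.78% at slice 1 day.

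Ccrl2, which binds chemerin and hands it to Cmklr1, was lowest in slices at 1 week and in vitro. It stood at 17.1 and 20.2 CPM in adult (18.6 ± 2.23), 18.1 and 19.3 CPM at slice 1 day (18.7 ± 0.836), 9.88 and 5.12 CPM at slice 1 week (7.50 ± 3.37), 26.4 and 21.4 CPM at slice 3 weeks (23.9 ± 3.54), and 9.47 and 8.48 CPM in vitro (8.97 ± 0.706). The values at slice 1 week rest on 10 and 2 UMIs. In vitro microglia had less Ccrl2 than adult (log2 fold change -1.05 ± 0.190, adjusted p = 0.000871) and less than slice 3 weeks (-1.40, 0.000307), with no overlap of libraries in either. Both calls were lost (adjusted p = 0.196 and 0.0521) without the neutrophil-, monocyte-, lymphocyte- and border-macrophage-marker cells, which are most of the in vitro cells. At 1 day (0.01, adjusted p = 0.964) and 3 weeks (0.35, 0.163) it was not called against adult.

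The 1-week values of Ccrl2 were called against adult (-1.14, adjusted p = 0.0272) and against 3 weeks (1.49 higher at 3 weeks, 0.0289). The first call did not hold in 12 of 23 alternatives, with adjusted p up to 0.184. Among these were DESeq2 (adjusted p = 0.0753), the study label covariate (0.0505) and the 2 groups alone (0.0668). That call was also lost without adult replicate 2, slice 1 day replicate 2 or either slice 1 week library (differences -1.83 to -0.95). Without the neutrophil-marker cells neither the first nor the second was called, at differences that moved little (-1.05, 0.0563, and 1.40, 0.0577). Without slice 1 week replicate 2 the second had an adjusted p of 0.0746, and it was lost without slice 1 week replicate 1 too. After thinning, a Ccrl2 UMI was in 2.38% and 2.47% of adult cells and in 1.20% and 0.597% of in vitro cells. In slice 1 week replicate 2 it was in 0 of 59 cells, which allows a share of up to 5.08%.

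Ccr1, the receptor for Ccl3, Ccl6 and Ccl9, was higher than in adult in each culture, with its highest mean in slices at 1 week. The adult libraries had 19.1 and 14.4 CPM (16.8 ± 3.32), against 131 and 106 CPM at slice 1 day (118 ± 18.1), 210 and 133 CPM at slice 1 week (172 ± 54.8), 56.4 and 71.8 CPM at slice 3 weeks (64.1 ± 10.9), and 122 and 111 CPM in vitro (116 ± 8.01). All 8 culture libraries lay above both adult ones. The log2 fold change was 2.80 ± 0.238 at 1 day (adjusted p = 8.4e-06), 3.38 ± 0.253 at 1 week (1.24e-05), 1.93 ± 0.232 at 3 weeks (0.000138) and 2.78 ± 0.236 in vitro (5.04e-06). These 4 calls held in every alternative and with every library left out. At 3 weeks the difference was 1.56 and 2.32 within the 2 study ID labels.

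Ccr1 was lower at 3 weeks than earlier in slices, by 1.46 from 1 week (log2 fold change -1.46, adjusted p = 0.00724) and by 0.88 from 1 day (-0.88, 0.0139). The latter was lost without slice 1 day replicate 1 (adjusted p = 0.0819) or slice 3 weeks replicate 1 (0.0519), and without the neutrophil-marker cells it was -0.48 (0.085). The former was lost without slice 1 week replicate 1 (0.184) and after thinning (0.133). Without the neutrophil-, monocyte-, lymphocyte- and border-macrophage-marker cells neither was called, at -0.74 (0.0755) from 1 week and -0.24 (0.343) from 1 day. In vitro microglia had 0.85 more than slice 3 weeks (adjusted p = 0.0111), lost without slice 3 weeks replicate 1 (0.0522) and, at 0.10 (0.711), without those 4 classes, a setting that takes out 87.6% and 88.0% of in vitro cells. The difference of 1 week from 1 day was 0.58 and not called (0.144), and was 0.88 and called (0.0233) without the neutrophil-marker cells.

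Neutrophils use Ccr1 too, and in slices 76.5% and 78.9% (1 day) and 62.5% (1 week, replicate 1) of neutrophil-marker cells had a Ccr1 UMI, against 23.4%, 30.8% and 24.0% of cells of no marker class. Those neutrophil-marker cells held 29.8% and 25.7% of all Ccr1 UMIs at slice 1 day. Without them Ccr1 was still 2.41 above adult on the log2 scale at 1 day (adjusted p = 6.56e-06) and 3.29 at 1 week (4.43e-06). After thinning to 1000 UMIs, all cells included, the share of cells with a Ccr1 UMI was 1.45% and 1.14% in adult, 14.5% and 10.4% at slice 1 day, 10.8% and 8.47% at slice 1 week, 4.60% and 6.10% at slice 3 weeks, and 9.72% and 8.13% in vitro. Both adult shares were below all the others.

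The cells that carried Ccr1 in adult and slices also had a higher sum of genes of brain border macrophages. Border macrophages of the meninges and perivascular spaces are marked here by Mrc1, Pf4, Lyve1, Cd163, F13a1, Ms4a7 and Cbr2. With neutrophil-marker cells left out, these 7 genes summed to 121 and 95.7 CPM of raw UMIs in adult cells with a Ccr1 UMI, against 8.79 and 6.17 CPM in adult cells with none. At slice 1 day the sums were 851 and 667 against 218 and 148 CPM, at slice 1 week 986 and 731 against 226 and 155 CPM, and at slice 3 weeks 417 and 302 against 121 and 83.3 CPM. The sum was higher with Ccr1 in 8 of 8 adult and slice libraries, and so were Mrc1, Pf4 and Ms4a7 each. Pf4 and Ms4a7 made up most of the sum in slices. Other genes of the list were not always higher with Ccr1. In slice 1 day replicate 1 Cd163 was at 1.92 against 2.45 CPM and Cbr2 at 0.962 against 2.45 CPM. In adult replicate 2 Lyve1, Cd163, F13a1 and Cbr2 were at 0 in the Ccr1 cells. In vitro it was 4632 and 4462 CPM with Ccr1 and 4373 and 4194 CPM without, a much smaller difference at a high level in both.

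The 8 microglia markers of the same cells summed in adult to 23332 and 23076 CPM with a Ccr1 UMI and to 23855 and 24019 CPM without. At slice 1 day the sums were 1875 and 1993 against 2730 and 2191 CPM, at slice 1 week 4501 and 4420 against 4685 and 5175 CPM, and at slice 3 weeks 8442 and 6623 against 8783 and 6527 CPM. They were lower with Ccr1 in 7 of these 8 libraries, and higher in both in vitro libraries, at 2083 and 1783 against 1835 and 1476 CPM. Of the Ccr1 UMIs of adult, 60.9% and 57.1% lay in cells with 2 or more, 61 and 25 cells of 3799 and 3527. In vitro that share was 90.0% and 90.3%, in 816 and 875 cells. Depth differs between the groups, so these shares are given side by side only. The part of border macrophages sorted with microglia in these sums was not tested.

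**Figure D2:**
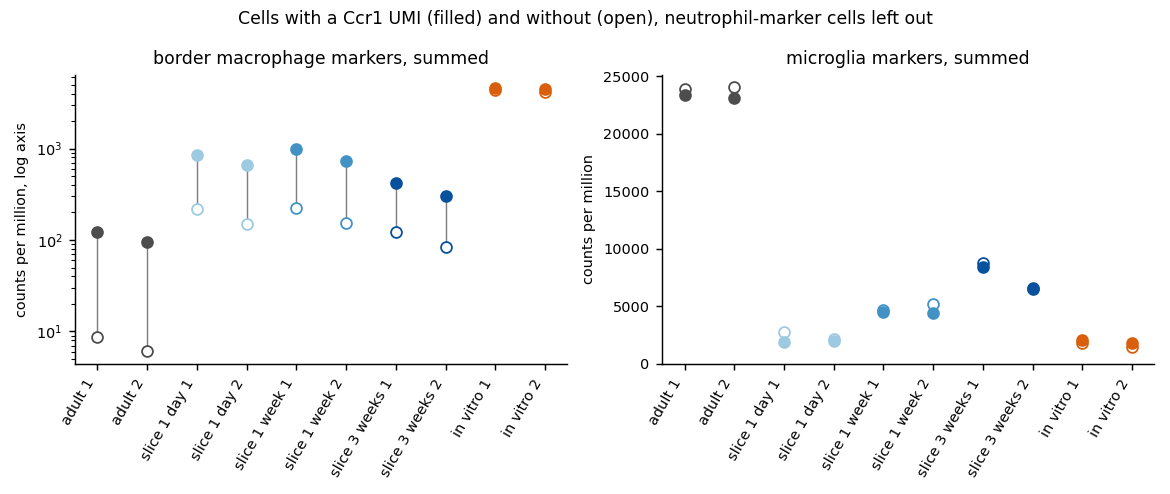
Summed CPM of raw UMIs of 7 border macrophage markers (log axis) and of 8 microglia markers (linear axis from 0) in cells with and without a Ccr1 UMI, 1 pair of points per library, neutrophil-marker cells left out. The summed border markers are higher in Ccr1 cells in all 8 adult and slice libraries and nearly level in vitro, while the adult microglia markers are close to equal.

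Cxcr4, the receptor for Cxcl12, had no UMI in adult microglia and was highest in vitro. Adult libraries had 0 UMIs in 3799 and 3527 cells, which allows up to 0.0790% and 0.0851% of cells with a UMI and, at their median depths of 3257 and 1858 UMIs, does not limit the share of cells that express the gene. In vitro there were 284 and 406 UMIs, or 9.12 and 11.4 CPM, in slice 3 weeks 17 and 34 UMIs (2.20 and 1.58 CPM), in slice 1 week 5 and 3 UMIs (4.94 and 7.68 CPM) and in slice 1 day 20 and 20 UMIs (5.24 and 2.06 CPM). Every culture library was above adult, and both in vitro libraries were above all slice libraries. Against the level that 3 UMIs over both adult libraries would give, Cxcr4 was at least 73.2-fold higher in vitro (adjusted p = 1.61e-05), at least 26.1-fold at 1 day (0.000256), at least 45.0-fold at 1 week (0.00167) and at least 13.5-fold at 3 weeks (0.00114). All 4 were called in every alternative that gave a value.

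In vitro microglia had 2.49 ± 0.404 more Cxcr4 than slice 3 weeks on the log2 scale (adjusted p = 0.00129), also called in every alternative. No difference between slice times was called. They were 0.82 from 1 day to 1 week, -1.66 from 1 week to 3 weeks and -0.85 from 1 day to 3 weeks, and the lowest adjusted p over the alternatives were 0.218, 0.142 and 0.0681. In vitro 10.1% and 12.6% of cells had a Cxcr4 UMI, and 0.745% and 1.01% after thinning. The thinned shares were 1.16% and 0.394% at slice 1 day, 2.03% and 1.69% at slice 1 week, on 3 and 1 cells, and 0.173% and 0.187% at slice 3 weeks. Those of slice 1 week were above and those of slice 1 day on both sides of the in vitro ones, against the order of the CPM, and no order is read from so few UMIs. In the thinned cells adult stayed at 0 of 3733 and 0 of 3322 cells, allowing up to 0.0804% and 0.0903%.

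Part of the slice signal of Cxcr4 at 1 day and 1 week lay in neutrophil-marker cells. They held 10 of 20 and 11 of 20 Cxcr4 UMIs at 1 day and 4 of 5 in slice 1 week replicate 1. Without them Cxcr4 was still called above adult at 1 day (adjusted p = 0.00188) and 1 week (0.0118), on 10, 9, 1 and 3 UMIs. At 3 weeks, with no neutrophil-marker cells, the 16 and 29 cells with a Cxcr4 UMI had fewer microglia gene reads than the rest. Only 1 and 5 of these cells held 2 or more Cxcr4 UMIs. Their 8 microglia markers summed to 3344 and 3181 CPM of raw UMIs, against 8823 and 6587 CPM. Tmem119 was at 115 and 104 against 537 and 377 CPM. The 7 border macrophage markers summed to 605 and 860 against 163 and 119 CPM. Most of that sum was Ms4a7, at 483 and 615 against 81.8 and 75.5 CPM. Lyve1, Cd163 and Cbr2 were at 0 in both sets of Cxcr4 cells, and F13a1 was at 0 and 63.3 against 7.55 and 16.2 CPM. These cells were deeper, with a median of 8249 and 9302 UMIs against 6099 and 5253. In vitro the microglia markers stood at 1798 and 1444 CPM with Cxcr4 and 1986 and 1651 CPM without, and the border macrophage markers at 4255 and 4051 with and 4541 and 4365 CPM without.

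Ccr2, the Ccl2 receptor of monocytes, was scarce in all groups and highest in slices at 1 day. It had 36 and 26 UMIs in adult (2.64 and 3.35 CPM, 2.99 ± 0.503), 94 and 172 at slice 1 day (24.6 and 17.7 CPM, 21.2 ± 4.89), 19 and 0 at slice 1 week (18.8 and 0 CPM), 5 and 7 at slice 3 weeks (0.647 and 0.326 CPM, 0.486 ± 0.227), and 36 and 35 in vitro (1.16 and 0.982 CPM, 1.07 ± 0.123). Slice 1 day lay above adult and adult above slice 3 weeks and in vitro, with no overlap, while 1 slice 1 week library was within the range of slice 1 day and the other at 0. Against adult the log2 fold change was 2.82 ± 0.479 at 1 day (adjusted p = 0.000639), and -2.77 at 3 weeks (0.00749). The call at 1 day held in every alternative. That at 3 weeks was lost without slice 3 weeks replicate 2 (adjusted p = 0.089) and with at most 500 cells per library (0.133), and the difference was -2.03 and -3.36 within the 2 study ID labels.

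In vitro Ccr2 was 1.46 below adult on the log2 scale (-1.46 ± 0.510, adjusted p = 0.0316), a call that did not hold in 9 of 24 alternatives. It was lost without adult replicate 1 (adjusted p = 0.0891), adult replicate 2 (0.119), slice 1 day replicate 2 (0.0622), in vitro replicate 1 (0.108) or in vitro replicate 2 (0.176). The 1-week call against adult (2.09, adjusted p = 0.0385) rests on slice 1 week replicate 1 alone and was also lost without any 1 of the adult, slice 1 day or in vitro libraries (adjusted p from 0.0508 to 0.110). Slice 1 week replicate 2 had 0 of 61 cells with a Ccr2 UMI, which allows a share of up to 4.92%. Without the neutrophil-marker cells that difference was 0.80 (0.455). From 1 day to 3 weeks Ccr2 fell by 5.59 on the log2 scale (adjusted p = 0.000211), in every alternative.

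The Ccr2 of slices at 1 day was concentrated in few cells. Of 94 and 172 UMIs, 86 and 148 were in cells with 2 or more, which were 19 and 30 cells of 518 and 1014. The 7 monocyte markers summed to 888 and 770 CPM of raw UMIs in them and to 171 and 640 CPM in cells with no Ccr2 UMI. Neutrophil-marker cells were left in both sets. Most of this was Plac8, a gene of blood monocytes, at 634 and 452 against 67.7 and 78.7 CPM, while Ly6c2, which marks inflammatory monocytes, was at 0 and 29.9 against 0.875 and 48.8 CPM. The 8 microglia markers summed to 359 and 579 CPM against 2482 and 2023 CPM. Cells with at least 3 of 7 monocyte markers, 14 and 63 at 1 day, held 12.8% and 22.1% of the Ccr2 UMIs, on average 17.4%, against 54.8% for cells with at least 2 of the 7 and 3.20% for those with at least 4. Over all cells, neutrophil-marker cells included, the 7 monocyte markers summed to 201 to 641 CPM at 1 day. At 1 week they summed to 15.4 to 1163 CPM, against 2.28 to 23.1 CPM in the other 6 libraries. Of the 7, 4 (Ly6c2, Chil3, Ear2 and Ifitm6) were at 0 in adult. Without neutrophil-, monocyte- and lymphocyte-marker cells Ccr2 stayed 2.62 above adult at 1 day (adjusted p = 0.000443).

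Cxcr2, the neutrophil receptor for Cxcl1 and Cxcl2, was near 0 outside the slices of 1 day and 1 week. It had 5 and 0 UMIs in adult (0.366 and 0 CPM), 1 and 3 at slice 3 weeks (0.129 and 0.140 CPM) and 0 and 1 in vitro (0 and 0.0281 CPM). At slice 1 day there were 201 and 305 UMIs (52.7 and 31.4 CPM), and at slice 1 week 57 and 0 (56.3 and 0 CPM). The libraries with Cxcr2 were those with many neutrophil-marker cells. Slice 1 week replicate 2, with 1 such cell, had 0 of 61 cells with a Cxcr2 UMI, which allows up to 4.92%. The log2 fold change from adult was 7.44 ± 0.923 at 1 day (adjusted p = 8.87e-05), called in every alternative but 12.07 without adult replicate 1, when adult was at 0, and 7.22 at 1 week (0.000613), which was -4.72 and not called without slice 1 week replicate 1, a value set by the prior count.

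Neutrophil-marker cells held 90.5% and 79.3% of the Cxcr2 UMIs at slice 1 day and 87.7% in slice 1 week replicate 1. A Cxcr2 UMI was in 83.8%, 79.8% and 79.2% of these cells, and in 2.68%, 5.58% and 3.85% of cells of no marker class, although the latter had the higher median depths given above. The class was set by S100a8 and S100a9, and Cxcr2 was no part of that rule. A stricter threshold of 5% left 53, 104, 23 and 1 cells in the 4 libraries of slice 1 day and 1 week, and their part of the Cxcr2 UMIs at 1 day was then 74.9% on average against 84.9%.

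With neutrophil-marker cells left out, Cxcr2 was still called above adult at 1 day (4.72, adjusted p = 0.000654) and 1 week (4.42, 0.0177), the latter on 7 UMIs in replicate 1 and 0 in replicate 2. Per 1000 UMIs of S100a8 and S100a9, which also set the class, Cxcr2 had 7.42, 1.70 and 1.83 UMIs in the neutrophil-marker cells of slice 1 day replicates 1 and 2 and slice 1 week replicate 1, and 9.83 (95% interval 5.92 to 15.3, counting error only), 2.07 (1.59 to 2.65) and 1.81 (0.727 to 3.72) in all other cells. Since the same UMIs set the class, these ratios are no test of where the remaining Cxcr2 UMIs came from, and the part of neutrophil RNA in them was not tested. In a sum over cells, fewer cells of a type and less RNA per cell cannot be told apart.

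**Figure D3:**
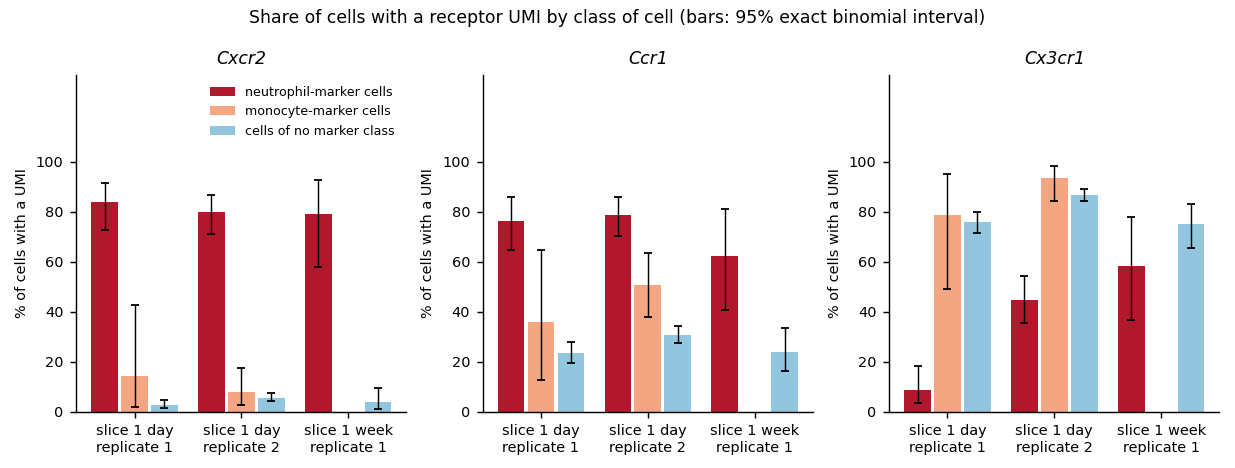
Percent of cells with at least 1 UMI of Cxcr2, Ccr1 or Cx3cr1 in neutrophil-marker cells, monocyte-marker cells and cells of no marker class of slice 1 day replicates 1 and 2 and slice 1 week replicate 1, with exact 95% binomial intervals. Cxcr2 and Ccr1 are high in the neutrophil-marker cells of all 3 libraries, Cx3cr1 is higher in the cells of no marker class, and the 2 monocyte-marker cells of slice 1 week are not drawn.

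Between cultures, the receptors that passed in vitro against slice 3 weeks were Ccr1 and Cxcr4, which were higher in vitro (2 of 7, against 13.3% of all genes), and Cx3cr1, Ccrl2 and Cmklr1, which were lower (3 of 7, against 20%). From 1 day to 1 week 2 rose (4.92% of all genes) and 0 fell (5.26%), and from 1 week to 3 weeks 1 rose (2.24%) and 3 fell (3.5%). From 1 day to 3 weeks Cx3cr1 and Cmklr1 rose (2 of 7, against 13.9%) and Ccr1, Ccr2 and Cxcr2 fell (3 of 7, against 12.8%). Without slice 1 week replicate 1 none of the 4 calls from 1 week to 3 weeks was made. Ccrl2 was then 2.23 higher at 3 weeks and Ccr1 1.03 lower (log2 fold change -1.03), in the direction of the full data, while Ccr2 and Cxcr2 had no UMI in the remaining 1-week library.

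**Figure D4:**
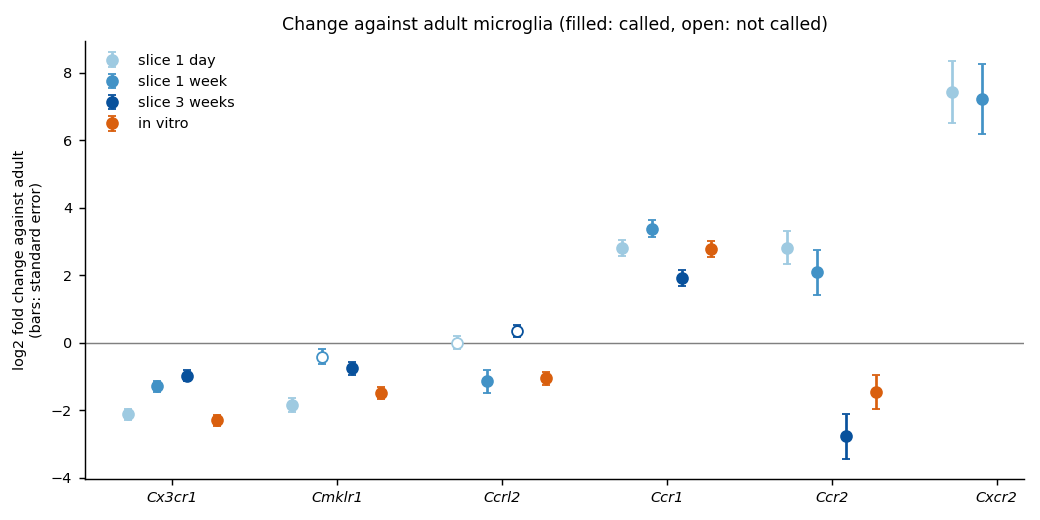
Log2 fold change (edgeR, error bars 1 SE, filled points called) of each receptor against adult in slices at 1 day, 1 week and 3 weeks and in vitro, without Cxcr4, whose adult libraries were at 0, and without Cxcr2 at 3 weeks and in vitro. Cx3cr1 lies below 0 and Ccr1 above 0 in all 4 cultures, and Ccr2 lies above 0 at 1 day and below 0 at 3 weeks and in vitro.

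The ligands of these receptors were mostly higher in culture than in adult. Of 18 ligands listed, 17 were in the tables and 13 could be tested. At slice 1 day 13 of 13 rose from adult, at slice 1 week 8 rose and 1 fell, at slice 3 weeks 7 rose and 0 fell, and in vitro 9 rose and 1 fell, against the shares of all genes given above. The median log2 fold change over the ligands was 4.12, 1.42, 1.68 and 2.07, and 4.12, 2.73, 1.73 and 2.08 with genes at 0 in a whole group set to their bound and those at 0 in both left out. Neutrophil markers were also highest at slice 1 day and 1 week, and the part of neutrophil-marker cells in the ligand counts was not tested. From 1 day to 1 week 0 rose (4.92% of all genes) and 9 fell (5.26%), with a median of -2.08. From 1 day to 3 weeks 0 rose (13.9%) and 7 fell (12.8%), with a median of -1.77. From 1 week to 3 weeks 3 rose (2.24%) and 0 fell (3.5%), with a median of 0.43, or 0.05 with the bounds.

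By receptor, the Ccr2 ligand Ccl2 was at 16.7 and 6.18 CPM in adult and at 383 and 567 CPM at slice 1 day, 5.34 ± 0.767 higher on the log2 scale (adjusted p = 0.000226). Ccl7, which binds Ccr1 and Ccr2, rose by 4.76 at 1 day (0.000351) and 3.10 in vitro (0.00345), but was 0.15 (0.913) at 3 weeks. Ccl12, another Ccr2 ligand, rose in slices at 1 day by 2.46 (5.86e-05) and fell in vitro (0.00101), from 290 and 194 CPM in adult to 86.2 and 85.6 CPM. The Ccr1 ligand Ccl3 stood at 38.2 and 49.2 CPM in adult and at 870 and 732 CPM at slice 3 weeks, 4.20 ± 0.200 higher (5.07e-07), when Ccr1 itself was 1.93 higher. In vitro Ccl3 was 2.07 above adult (6.5e-06) and 2.13 below slice 3 weeks (-2.13, 1.55e-05). Cxcl2, a Cxcr2 ligand, had no UMI in adult and 95.4 and 68.5 CPM at slice 1 day. Mif, a cytokine that also binds Cxcr2 and Cxcr4, stood at 140 and 119 CPM in adult and at 488 to 1593 CPM in the other 8 libraries, with log2 fold changes of 2.08 to 3.61, all 4 called. Cx3cl1, Cxcl12 and Rarres2, the ligands of Cx3cr1, Cxcr4 and Cmklr1 named above, were too low to be tested and reached at most 7.68, 1.34 and 0.559 CPM in any library.

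Receptors outside the 7 are given beside the shares of all genes called against adult. In vitro 22.4% of all genes rose while 28.5% fell, and in slices 24.9% rose while 25.4% fell after 1 day, 15% rose while 13.6% fell after 1 week and 18% rose while 17.5% fell after 3 weeks. Of 14 other chemokine receptors in the tables only 5 had enough counts to be tested, and 0 rose and 2 fell in vitro, 1 rose and 2 fell at 1 day, 1 rose and 1 fell at 1 week, and 0 rose and 3 fell at 3 weeks. Of 13 other chemoattractant receptors tested, 6 rose and 6 fell in vitro, 7 rose and 4 fell at 1 day, 5 rose and 4 fell at 1 week, and 2 rose and 5 fell at 3 weeks, with median log2 fold changes of -0.96, 1.27, 0.29 and 0.45. Among the rises at 1 day and 1 week were Fpr1 and Fpr2, the formyl peptide receptors, and Ltb4r1, the leukotriene B4 receptor, at log2 fold changes of 7.24 to 9.11. In the 3 libraries with many neutrophil-marker cells Fpr1 was at 27.0 to 32.5, Fpr2 at 30.1 to 31.4 and Ltb4r1 at 39.8 to 95.9 CPM, against 0, 5.12 and 2.56 CPM in slice 1 week replicate 2, so that their rises at 1 week rest mainly on replicate 1, and the part of those cells in the counts was not tested. C3ar1, the receptor for the complement fragment C3a, rose in all 4, by 1.13 in vitro, 1.46 at 1 day, 0.81 at 1 week and 0.99 at 3 weeks (adjusted p from 0.000118 to 0.00973). C5ar1, the C5a receptor, rose by 1.70 at 1 day (0.00171). Ptafr, the platelet activating factor receptor, fell by 1.79 on the log2 scale at 1 day (1.85e-05) and by 2.05 at 3 weeks (1.62e-05). Gpr84, a receptor for medium chain fatty acids, was below adult in vitro (log2 fold change -3.88, adjusted p = 3.56e-05).

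Among 35 tested genes that carry the signal inside the cell (G protein subunits, Rgs proteins, arrestins, Rac and Elmo), 5 rose and 15 fell in vitro, 5 rose and 16 fell at 1 day, 6 rose and 10 fell at 1 week, and 1 rose and 17 fell at 3 weeks, with median log2 fold changes of -0.44, -0.57, -0.23 and -0.65 against -0.11, -0.06, -0.08 and -0.03 over all genes. The shares of all genes that rose and fell are those given for the other receptors. Elmo1, which helps Rac activation in cell movement, was at 200 and 219 CPM in adult and 36.2 to 86.0 CPM in the other 8 libraries, with log2 fold changes from adult of -2.48 to -1.61, all 4 called. Rgs10, a brake on Gi signalling that microglia hold in large amount, was at 1628 and 1376 CPM in adult and 309 to 923 CPM elsewhere. Rac2, the Rac of blood cells, was lower in adult, at 189 and 194 CPM, than in the other 8 libraries, at 269 to 642 CPM, and was called in all cultures but slice 3 weeks (log2 fold change 0.56, under 1.5-fold).

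The genes whose pattern over the 10 libraries was most like that of each receptor (Pearson r of log2(CPM + 1), as a description, since libraries share group and depth) differed between receptors. For Cx3cr1 they were Gpr34 (0.992), P2ry13 (0.990) and P2ry12 (0.987), for Cmklr1 Rcsd1 (0.972), Pald1 (0.959) and Dpm1 (0.951), and for Ccrl2 Slc3a2 (0.947), Ube2g1 (0.938) and Alg3 (0.917). For Ccr1 they were Pla2g7 (0.986), Gpx3 (0.968) and Qars (0.964), and for Cxcr4 Mrpl4 (0.967), Atp2b1 (0.965) and Sh3bgrl (0.962). For Cxcr2 they were Wfdc21 (0.985), Stfa3 (0.972) and Stfa2 (0.971), and Wfdc21 was also the most like Ccr2 (0.917), with Ncf4 (0.912) and Cdk2ap2 (0.910). Gpr34 and P2ry12 are on the microglia marker list.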

How the data were processed

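Single cell libraries were made by the authors with the 10x Genomics 3' v2 chemistry. The submitters' processing notes name Cell Ranger 1.3.0 and the mm10 genome, and the values the authors deposited are unnormalised UMI counts of each gene in each barcode, 1 table per library. Here, barcodes were left out where mitochondrial UMIs exceeded 5%, fewer than 400 genes were seen or UMIs exceeded 30000 (578 of 19637 barcodes), and no doublet caller was run. Counts were summed per library and fitted with edgeR 4.0.16 (R 4.3.3, quasi-likelihood, TMM factors, filterByExpr with a minimum count of 10) in 1 model of 10 libraries and 12155 genes (biological coefficient of variation 18.2%). Calls were made at an adjusted p under 0.05 and a fold change over 1.5. Levels by library are TMM normalised CPM, and values by cell class are CPM of raw UMIs. Neutrophil-marker cells had S100a8 and S100a9 at 1% of UMIs or more, and monocyte-marker cells at least 3 of 7 markers. Intervals and limits (3 counts) cover counting error only. The fit was tested on simulated data. Replicate numbers do not pair the libraries (correlations of deviations -0.135 to 0.123). Alternatives were other scalings and filters, DESeq2 1.42.0, a study label covariate, a replicate block, thinned cells (1000 UMIs), leaving out marker classes and leaving out each library. The members and gene lists were chosen with earlier results of these data known, and listed genes other than members were named as the 2 largest rises and falls among called genes whose average log2 CPM was 5 or more. Cxcl2, Mif, Fpr1, Fpr2 and Ltb4r1, and the values of Ccl3, Ccl7 and Ccl12 in comparisons where that rule did not name them, were chosen after they were seen. Plac8, Ly6c2, Cx3cl1, Cxcl12, Rarres2 and single border macrophage markers were also named outside that rule. Genes most like a member were taken from the same expression range. Promoter sequences are those of RefSeq (GRCm38.p6), and gene positions those of GENCODE (GRCm38).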

Additional observations from a re-analysis of the deposited data

Results flagged for a closer look

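Ccr2 stood out because its difference from adult changed direction between slice times, above adult at 1 day and 1 week and below adult at 3 weeks. The difference itself was tested in the same edgeR fit, with a log2 fold change of -5.59 from 1 day to 3 weeks (adjusted p = 0.000211) and of -4.86 from 1 week to 3 weeks (0.00875). The first was called in every alternative. The second rests on slice 1 week replicate 1, without which it was 5.63, a value set by the prior count since the remaining library had no Ccr2 UMI, and without neutrophil-marker cells it was -3.57 (0.0549). The summed monocyte markers were at 201 to 641 CPM at 1 day and 15.4 to 1163 CPM at 1 week. At 3 weeks they summed to 2.28 to 5.05 CPM. These sums included neutrophil-marker cells, which numbered 68 and 114, 24 and 1, and 0 and 0 at these times. Monocyte-marker cells numbered 14 and 63, 2 and 0, and 0 and 0. What part monocytes had in the result was not tested.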

How the results depend on the processing

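Of 56 differences (7 receptors in 8 comparisons), 39 were called, and 21 of these kept their call in every alternative. Of 1316 alternative values, 1206 kept direction and side of the threshold, 76 lost the call, 13 gained one and 21 changed sign, and 49 of the 76 involve the slice 1 week libraries. With the replicate block, 56 of 56 kept both, with 6, 6, 6, 5, 5, 2, 4 and 5 receptors called. Depth limits slice 1 week (148 and 61 cells), where Ccr2, Cxcr2, Cxcr4, Ccrl2 and Cmklr1 rest on 57 UMIs or fewer per library. With library size alone as scaling, the median of all genes moved by up to -0.30 (in vitro against adult), which took the share of higher genes among calls from 44.0% to 29.9%, and from 52.5% to 37.7% at slice 1 week. Library size alone also moved it from 50.6% to 35.8% at slice 3 weeks and from 48.3% to 36.4% from 1 day to 1 week, while from 1 week to 3 weeks it went from 39.0% to 22.2% in the 2 groups alone and to 53.7% with no filter on low counts.

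Receptors called with one library left out ran from 5 to 6 in vitro against adult, 6 to 6 at slice 1 day, 3 to 6 at slice 1 week, 3 to 5 at slice 3 weeks, 3 to 6 in vitro against slice 3 weeks, 0 to 3 from 1 day to 1 week, 0 to 4 from 1 week to 3 weeks and 4 to 5 from 1 day to 3 weeks. Other settings that moved these counts past 1.5 times were fitting the 2 groups alone (3 at slice 1 week against adult and 1 from 1 week to 3 weeks), leaving out neutrophil-marker cells (4 from 1 day to 1 week, 2 from 1 week to 3 weeks), leaving out 4 marker classes (3 in vitro against slice 3 weeks, 0 from 1 week to 3 weeks), leaving out 3 classes, a setting added after the data were seen (1 from 1 week to 3 weeks), and thinning (0 and 1 for these steps).

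Signs changed as follows. Ccrl2 at slice 1 day against adult was 0.01 and became -0.11 with library size alone, -0.19 without neutrophil-marker cells, -0.24 and -0.23 without 4 and 3 classes, and -0.067 to 0.14 with 1 library left out. Cxcr4 from 1 day to 3 weeks became 0.18, 0.41 and 0.35 without those cells. With thinning, Cxcr2 at 3 weeks against adult became 0.58, Ccr1 and Ccr2 from 1 day to 1 week -0.083 and 0.039, and Cmklr1 from 1 week to 3 weeks 0.65. Cxcr2 in vitro against slice 3 weeks was 0.058 without 4 classes. With 1 library left out, Cxcr2 ran from -4.32 to 1.38 in vitro, -4.72 to 11.84 at 1 week and -1.36 to 3.93 at 3 weeks against adult, from -12.22 to 0.36 from 1 day to 1 week and from -8.52 to 4.06 from 1 week to 3 weeks. Ccr2 ran from -8.36 to 2.63 at 1 week against adult and from -5.36 to 5.63 from 1 week to 3 weeks. Where leaving out a library left a group with no UMI, the value depends on the prior count and is no bound, and for the others the cause was not tested. Of 91 shares of cells or UMIs, 47 moved by more than 1 SD under another thinning depth or cell class.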
